A study of Sus scrofa with 20 samples.

Results

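Stored triacylglycerol is broken down inside cells by a short series of hydrolases, and 8 genes of this pathway were examined in backfat and liver of the Nanchukmacdon pig. They were LIPE, PNPLA2, PNPLA3, MGLL, ABHD5, G0S2, LIPA and CES1, chosen by name and matched to pig Ensembl identifiers. Earlier results of these data were known when the genes were chosen. An identifier was found for 7 of them, out of 31907 genes counted, and CES1, a carboxylesterase of the liver endoplasmic reticulum, had no matched identifier and was not analysed here. All 7 passed the filter on low counts. Tissue was collected from 5 boars of this breed, which the labels describe as wild type, normal and 22 months old, with no treatment given, and RNA-seq was made from bulk backfat and bulk liver with 5 libraries per tissue. The columns of the count table carry a number, 65, 67, 69, 71 or 72, in each tissue, which was read as the number of the boar. Bisulfite libraries of the same tissues carry no position by gene in the files used and are not described.

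In cytosolic lipolysis PNPLA2 (adipose triglyceride lipase, ATGL) removes the first fatty acid of a triacylglycerol, LIPE (hormone-sensitive lipase, HSL) the next from the diacylglycerol, and MGLL (monoglyceride lipase) the last. ABHD5 (CGI-58) is the protein that activates PNPLA2 at the lipid droplet, and G0S2 is a small protein that inhibits it. PNPLA3 is a close relative of PNPLA2 known from fatty liver, and LIPA is the acid lipase that works in the lysosome rather than at the droplet. Adipose tissue uses the cytosolic route to release fatty acids to the blood during fasting, while the liver takes up, stores and burns or exports fatty acids.

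The 3 cytosolic hydrolases were higher in backfat, while ABHD5 and G0S2, the activator and inhibitor of PNPLA2, did not pass the test, nor did PNPLA3 or LIPA. LIPE was 155-fold, MGLL 31.8-fold and PNPLA2 12.7-fold higher in the mean of backfat than in the mean of liver (n = 5 libraries per tissue). The fitted log2 fold changes (backfat minus liver) were 7.27 for LIPE (standard error 0.45), 4.99 for MGLL (0.50) and 3.66 for PNPLA2 (0.25), and for the other 4 genes they lay between 0.17 and 0.68. The counts of 16275 genes went into edgeR's quasi-likelihood test, with the p-values adjusted by the Benjamini-Hochberg method (FDR), and "called" stands for an FDR of at most 0.05 together with a log2 fold change of 2 or more, whichever its sign. By this rule 3 of the 7 genes were called, all 3 higher in backfat, where 22.3% of all tested genes were called, 11.1% towards backfat and 11.2% towards liver. By the FDR alone 55% of all tested genes passed. The ranges of the tissues did not overlap for the same 3 of 7 genes, against 42.6% of all tested genes in either direction and 22.9% in the direction of backfat. The median log2 fold change of the 7 genes was 0.68, beside 0.00014 over all tested genes. With 2 libraries left out together, the 2 that stood apart in the checks given next, the same 3 genes were called.

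Between 43820042 and 61772737 read pairs were counted per library, and the lowest count of any of the 7 genes in any library was 107. Levels are given as CPM, a count divided by the library's total and scaled to a common total after edgeR's TMM correction. In backfat, 5 of 7 adipocyte genes of a fixed list were called higher, and LGALS12 had no read in liver. The other 2, ADRB3 (0.0541 to 0.555 CPM) and RETN (0 to 0.183 CPM), were near 0 in backfat. In liver ADRB3 ran from 0.0632 to 0.624 CPM and RETN from 0.0849 to 2.43 CPM, so neither marked backfat. All 8 hepatocyte genes were called higher in liver. The summed hepatocyte genes lay at 93.6 CPM in the backfat library of boar 69 against 3.08 to 3.79 CPM in the other 4 backfat libraries. In the liver library of boar 67 they summed to 19660 CPM against 72590 to 87490 CPM in the other 4, the 13 protein-coding mitochondrial genes took 44.5% of counts against 6.38% to 20.2% in the other 9 libraries, and 3 skeletal muscle genes summed to 147 CPM against 0.474 to 1.20 CPM in the other livers. In bulk tissue, fewer cells of a type and less RNA per cell cannot be told apart.

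The sequence around the annotated starts is shown for the 3 called hydrolases and for G0S2, whose tissues overlapped. Whether any motif in it bears on the levels was not tested. Each is the 300 bases from 250 before to 50 after the gene start in the RefSeq annotation of Sscrofa11.1, the build to which the reads were mapped, printed in the direction of the gene. Capitals mark matches, on either strand, to any of 7 motifs: AGGTCA (nuclear receptor half-site), TGACGTCA (cAMP response element), CACGTG (E-box), TGTTTAC (forkhead site), CCAAT (the box of that name, ATTGG on the other strand), TATAAA (the core element known as a TATA box) and GGGCGG (GC box, CCGCCC on the other strand).
PNPLA2, chr2:512815-513114, plus strand: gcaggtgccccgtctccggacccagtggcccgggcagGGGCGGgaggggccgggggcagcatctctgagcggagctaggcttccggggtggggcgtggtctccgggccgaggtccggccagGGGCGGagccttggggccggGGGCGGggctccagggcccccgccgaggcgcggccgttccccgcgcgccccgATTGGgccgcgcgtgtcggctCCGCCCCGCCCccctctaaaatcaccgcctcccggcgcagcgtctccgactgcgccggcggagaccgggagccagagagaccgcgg
LIPE, chr6:49543421-49543720, plus strand: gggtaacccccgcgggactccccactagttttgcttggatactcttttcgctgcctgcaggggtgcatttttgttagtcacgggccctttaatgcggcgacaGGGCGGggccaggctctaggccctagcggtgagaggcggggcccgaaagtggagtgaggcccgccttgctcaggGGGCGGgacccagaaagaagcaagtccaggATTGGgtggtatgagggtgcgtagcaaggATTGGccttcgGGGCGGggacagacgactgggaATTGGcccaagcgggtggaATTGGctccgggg
MGLL, chr13:72480145-72480444, plus strand: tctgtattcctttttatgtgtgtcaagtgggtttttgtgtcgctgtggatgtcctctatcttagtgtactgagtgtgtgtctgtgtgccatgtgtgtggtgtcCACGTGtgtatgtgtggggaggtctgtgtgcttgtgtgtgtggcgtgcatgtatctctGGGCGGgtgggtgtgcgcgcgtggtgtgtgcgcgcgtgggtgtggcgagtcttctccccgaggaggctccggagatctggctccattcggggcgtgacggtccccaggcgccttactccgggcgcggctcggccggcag
G0S2, chr9:133288017-133288316, minus strand: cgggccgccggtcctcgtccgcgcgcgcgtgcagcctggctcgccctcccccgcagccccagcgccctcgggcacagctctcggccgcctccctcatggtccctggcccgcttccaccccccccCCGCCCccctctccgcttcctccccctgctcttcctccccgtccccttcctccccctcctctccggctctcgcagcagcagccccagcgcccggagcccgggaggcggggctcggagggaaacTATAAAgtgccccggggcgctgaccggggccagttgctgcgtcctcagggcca

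A GC box was found in the windows of all 7 genes. PNPLA2 held 5 of them, of which 2 share 1 base, and 1 CCAAT box, and LIPE held 3 GC boxes and 4 CCAAT boxes. MGLL held 1 E-box and 1 GC box, and G0S2 held 1 GC box and a TATA box that overlaps the annotated start. Of the windows not printed, ABHD5 held 2 GC boxes and 1 half-site, PNPLA3 1 GC box and 1 CCAAT box, and LIPA 1 GC box. G and C made up 79.3% of the bases in PNPLA2, 63% in LIPE, 60% in MGLL and 76.3% in G0S2. Of 19556 windows of the same length at protein-coding genes, 50.6% held a GC box, 35.4% a CCAAT box, 10.9% a TATA box and 7.92% an E-box. The half-site (14.1% of windows), the cAMP response element (2.26%) and the forkhead site (2.65%) had no match in the 4 printed windows. The annotated starts are uncertain: the curated RefSeq transcript of LIPE begins 5717 bases after the start used here, that of G0S2 324, that of MGLL 198 and that of PNPLA2 172 bases after it. For the windows not printed, this distance was 92622 bases for LIPA, 84 for PNPLA3 and 0 for ABHD5. Each window, printed or not, thus ends before the curated start of its gene, except that of ABHD5. The LIPA and LIPE windows lie farthest from their curated starts. Apart from ABHD5, the motif matches and absences given here describe the sequence at the annotated gene starts. The sequence at the curated starts was not searched for these genes.

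PNPLA2 (ENSSSCG00000012841, chromosome 2, 513065 to 517962) had the smallest spread among boars of the 7 genes in backfat. Its levels there were 605 CPM in boar 65, 641 in boar 67, 569 in boar 69, 537 in boar 71 and 483 in boar 72. In liver they were 32.7, 46.1, 31.1, 57.4 and 56.7 CPM in the same order. Every backfat library thus lay above every liver library, and backfat varied by 1.33-fold from its lowest to its highest library. The means were 567 ± 61.2 CPM across backfat libraries against 44.8 ± 12.6 CPM across liver libraries (SD, n = 5 each), and the FDR was 1.46e-07 (edgeR's quasi-likelihood test). The standard deviation of its log2 level in backfat, 0.16, was above that of only 13% of tested genes, whose median was 0.32. Within boars the log2 difference ran from 3.09 in boar 72 to 4.20 in boar 65, and the 95% interval of the fitted value was 3.12 to 4.21.

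LIPE (ENSSSCG00000003018, chromosome 6, 49543671 to 49560126) showed the largest difference between tissues of the 7 genes. In backfat it was measured at 775 CPM in boar 65, 962 in boar 67, 418 in boar 69, 422 in boar 71 and 254 in boar 72. In liver the values were 2.67, 5.21, 2.93, 3.98 and 3.53 CPM in the same order. The tissues were far apart, yet backfat itself varied by 3.78-fold, with boars 65 and 67 high and boar 72 low. The means were 566 ± 292 CPM across backfat libraries against 3.66 ± 1.01 CPM across liver libraries (SD, n = 5 each), with an FDR of 6.71e-08 (edgeR's quasi-likelihood test) and a 95% interval of the log2 fold change from 6.29 to 8.26. This change was the 152nd largest towards backfat of 16275 tested genes, where MGLL was 380th and PNPLA2 700th. The spread of LIPE among backfat libraries (SD of log2 levels 0.77) was above that of 93.4% of tested genes, while its spread in liver (0.37) was above that of 36.8%.

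MGLL (ENSSSCG00000024134, chromosome 13, 72480395 to 72568964) was even among boars in backfat and uneven in liver. Its backfat levels were 363 CPM in boar 65, 376 in boar 67, 476 in boar 69, 534 in boar 71 and 459 in boar 72. Its liver levels were 6.33, 28.7, 4.31, 17.3 and 12.8 CPM in the same order. All backfat libraries were above all liver libraries, and the highest liver value came from the library of boar 67. The means were 442 ± 71.5 CPM across backfat libraries against 13.9 ± 9.77 CPM across liver libraries (SD, n = 5 each), with an FDR of 3.28e-06 (edgeR's quasi-likelihood test) and a 95% interval of the log2 fold change from 3.92 to 6.07. The difference between the lowest and highest library was 1.47-fold in backfat and 6.66-fold in liver, and the SD of log2 levels in liver, 1.09, was above that of 93.4% of tested genes. Without the liver library of boar 67 the log2 fold change was 5.40.

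**Figure D1:**
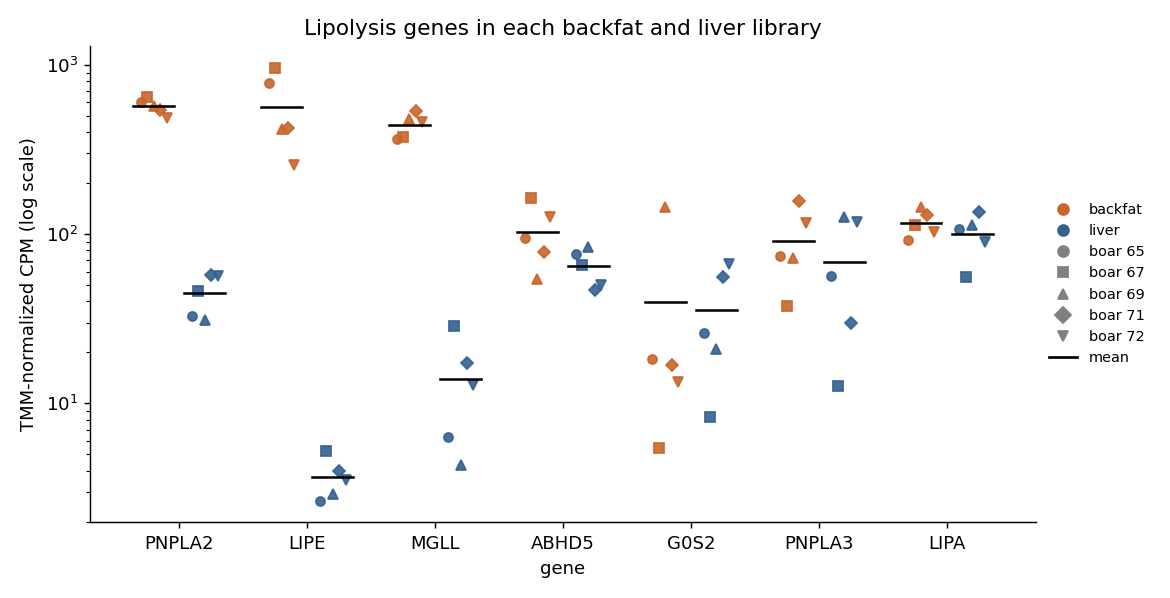
TMM-normalized CPM (log axis) of the 7 genes in each library, with backfat in orange, liver in blue, a marker shape for each boar and a black line at the mean of 5 libraries. PNPLA2, LIPE and MGLL lie higher in every backfat library than in any liver library, while the ranges of ABHD5, G0S2, PNPLA3 and LIPA overlap.

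The partners of PNPLA2 did not share this difference. ABHD5 (ENSSSCG00000011297, chromosome 13, 27006331 to 27053760), its activator, had 95.3 CPM in boar 65, 163 in boar 67, 54.0 in boar 69, 78.4 in boar 71 and 126 in boar 72 in backfat. The liver values were 75.9, 65.9, 84.3, 46.7 and 49.7 CPM. Backfat was higher in 4 of 5 boars, boar 69 being the exception, and 3 of the 5 liver libraries fell within the backfat range. The means were 103 ± 42.5 CPM and 64.5 ± 16.3 CPM (SD, n = 5 each), a log2 fold change of 0.68 (standard error 0.28, 95% interval 0.06 to 1.30) with an FDR of 0.059 (edgeR's quasi-likelihood test). The FDR was 0.00294 with library size alone as the scaling, 0.0152 without the backfat library of boar 69, 0.165 without that of boar 67 and 1 in glmTreat, which tests the fold threshold itself. By edgeR's test the FDR was also 0.0333 with upper quartile scaling and 0.0477 without the filter on low counts. Leaving out the liver library of boar 69 gave 0.0439, and leaving out liver 67 and backfat 69 together gave 0.021. The remaining alternatives, by edgeR, DESeq2 or limma-voom, gave FDRs of 0.0507 to 0.148. The fold stayed below the threshold in every setting tried.

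G0S2 (ENSSSCG00000015617, chromosome 9, 133287065 to 133288066), the inhibitor, was the most variable of the 7 genes in backfat. Its backfat levels were 18.3 CPM in boar 65, 5.43 in boar 67, 145 in boar 69, 16.8 in boar 71 and 13.3 in boar 72. In liver it was measured at 26.1, 8.26, 21.0, 55.5 and 66.5 CPM. The backfat library of boar 69 stood above every other library of either tissue, and in the other 4 boars G0S2 was lower in backfat than in liver. The means, 39.9 ± 59.2 CPM across backfat libraries against 35.5 ± 24.5 CPM across liver libraries (SD, n = 5 each), gave a log2 fold change of 0.17 (standard error 0.80, 95% interval -1.57 to 1.91, FDR = 0.872, edgeR's quasi-likelihood test). Without the backfat library of boar 69 the log2 fold change was -1.39 (FDR = 0.0526), and with the liver library of boar 67 also left out it was -1.65 (FDR = 0.0087), which still missed the fold threshold. With the boar as a block it was -0.63 (FDR = 0.446), and with single libraries left out the FDR ran from 0.0526 to 0.981. The same backfat library held 93.6 CPM of summed hepatocyte genes, and their part in its G0S2 level was not tested. The SD of log2 levels of G0S2 in backfat, 1.73, was above that of 99.6% of tested genes.

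PNPLA3 (ENSSSCG00000027266, chromosome 5, 5075608 to 5092599) overlapped widely between tissues. It was measured in backfat at 73.9 CPM in boar 65, 37.6 in boar 67, 72.1 in boar 69, 156 in boar 71 and 116 in boar 72. In liver the levels were 56.6, 12.7, 126, 30.0 and 117 CPM in the same order. Backfat was higher in 3 of 5 boars, and the within-boar log2 difference ran from -0.80 in boar 69 to 2.37 in boar 71. The means were 91.1 ± 45.7 CPM across backfat libraries against 68.5 ± 50.9 CPM across liver libraries (SD, n = 5 each), a log2 fold change of 0.41 (95% interval -0.78 to 1.60) with an FDR of 0.544 (edgeR's quasi-likelihood test). Liver varied by 9.87-fold from lowest to highest, and the SD of its log2 levels, 1.39, was above that of 97.5% of tested genes. The lowest value, 12.7 CPM, came from the liver library of boar 67, without which the log2 fold change was 0.12.

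LIPA (ENSSSCG00000010450, chromosome 14, 101131372 to 101254739), the lysosomal lipase, was alike in level in most libraries. Its backfat values were 92.1 CPM in boar 65, 114 in boar 67, 144 in boar 69, 130 in boar 71 and 103 in boar 72, and its liver values 107, 55.8, 113, 135 and 89.9 CPM. The lowest of the 10 was again the liver library of boar 67, and 3 of 5 liver libraries fell within the backfat range. The means were 116 ± 20.9 CPM across backfat libraries against 100.1 ± 29.6 CPM across liver libraries (SD, n = 5 each), with an FDR of 0.442 (edgeR's quasi-likelihood test). The log2 fold change was 0.22 with a 95% interval from -0.28 to 0.72, the narrowest of the 7. A change of 2 on the log2 scale lay outside it, as it did for ABHD5, G0S2 and PNPLA3. Without the liver library of boar 67 and the backfat library of boar 69 the log2 fold change of LIPA was -0.024.

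**Figure D2:**
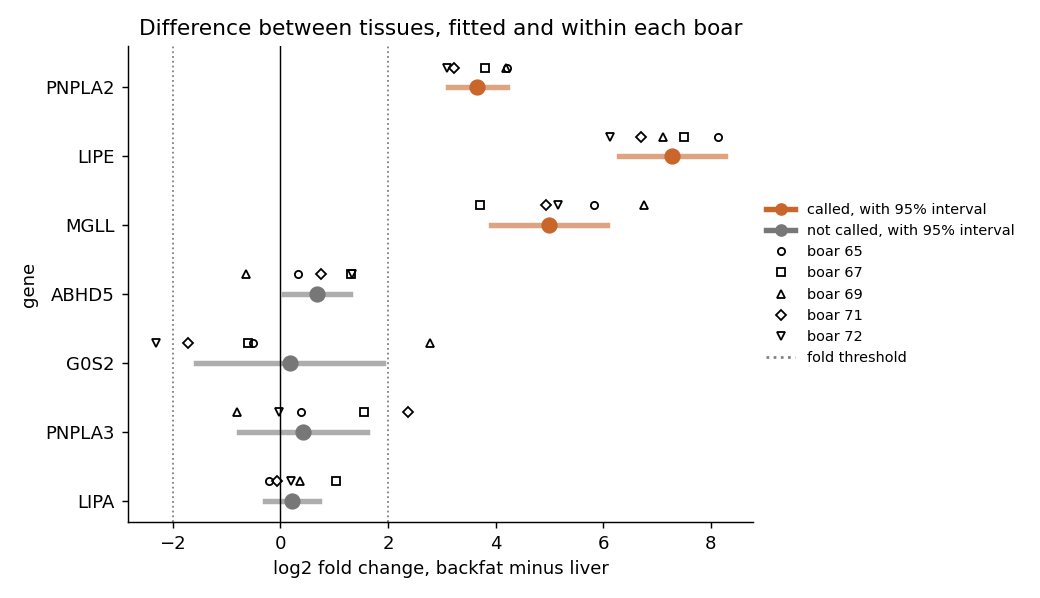
Log2 fold change (backfat minus liver) of each gene from the fit (filled point) with its 95% interval (bar), and the difference within each of the 5 boars (open symbols), where 0.5 CPM was added to each level. Orange marks called genes, and dotted lines mark the fold threshold of 2. The intervals of PNPLA2, LIPE and MGLL lie beyond the threshold, and G0S2 is above 0 in boar 69 and below 0 in the other 4 boars.

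The balance between the genes was compared within each library, where the log2 ratio of counts of a pair needs no scaling between libraries (0.5 counts were added to each). Ratios were compared between tissues by a two-sided exact permutation test over all arrangements of the 10 libraries, with adjustment over 7 pairs. The smallest p that this exact permutation test allows here is 0.00794. The length of a gene cancels when a ratio is compared between tissues, so only the shift between tissues is read. PNPLA2 rose against its inhibitor: the log2 ratio of PNPLA2 to G0S2 was 4.82 ± 1.77 in backfat against 0.64 ± 1.07 in liver (SD, n = 5 each), a shift of 4.18 (exact permutation p = 0.0159, adjusted p = 0.0185). Its lowest backfat value, 1.97 in boar 69, lay below the highest liver value, 2.48 in boar 67. PNPLA2 also rose against its activator, with a log2 ratio of PNPLA2 to ABHD5 of 2.55 ± 0.61 in backfat against -0.54 ± 0.79 in liver (SD, n = 5 each) (shift 3.09, exact permutation p = 0.00794, adjusted p = 0.0185). The activator against the inhibitor, ABHD5 to G0S2, shifted by 1.09 and did not pass (exact permutation p = 0.413, adjusted p = 0.413), with -1.43 in the backfat library of boar 69 and 2.22 to 4.91 in the other 4 backfat libraries. Without that library and the liver library of boar 67 the shift was 2.47 (exact permutation test, adjusted p = 0.0333, where the alternatives ran from 0.0333 to 0.738).

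The 3 hydrolases did not differ between tissues by one common factor. The log2 ratio of LIPE to PNPLA2 was -0.16 ± 0.62 in backfat against -3.60 ± 0.34 in liver (SD, n = 5 each), a shift of 3.45 with no overlap of the tissues (exact permutation p = 0.00794, adjusted p = 0.0185). MGLL shifted less than LIPE: the log2 ratio of MGLL to LIPE was -0.21 ± 0.96 in backfat against 1.65 ± 0.75 in liver (SD, n = 5 each), a shift of -1.86 (exact permutation p = 0.0159, adjusted p = 0.0185). The highest backfat value of that ratio, 0.85 in boar 72, exceeded the lowest liver value, 0.56 in boar 69, and without the liver library of boar 67 and the backfat library of boar 69 the test was not passed (shift -1.76, adjusted p = 0.0571 by the exact permutation test). PNPLA3 shifted against PNPLA2 by -3.002 (exact permutation p = 0.0159, adjusted p = 0.0185), from 0.21 ± 1.57 (SD, n = 5) in liver to -2.79 ± 0.91 (SD, n = 5) in backfat. LIPA shifted against PNPLA2 by -3.44 (exact permutation p = 0.00794, adjusted p = 0.0185), with 1.15 ± 0.67 (SD, n = 5) in liver and -2.30 ± 0.31 (SD, n = 5) in backfat. The ratios of PNPLA2 with G0S2, ABHD5, PNPLA3 and LIPA each set it against a gene that was not called. Their shifts thus share the PNPLA2 difference and are not separate results. Apart from ABHD5 to G0S2, with 4 of 5, every ratio moved in its direction in 5 of 5 boars. Paired by boar, the 6 ratios that passed gave p = 0.0625 in an exact sign-flip test, the smallest p that 5 pairs allow, and none can then pass.

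**Figure D3:**
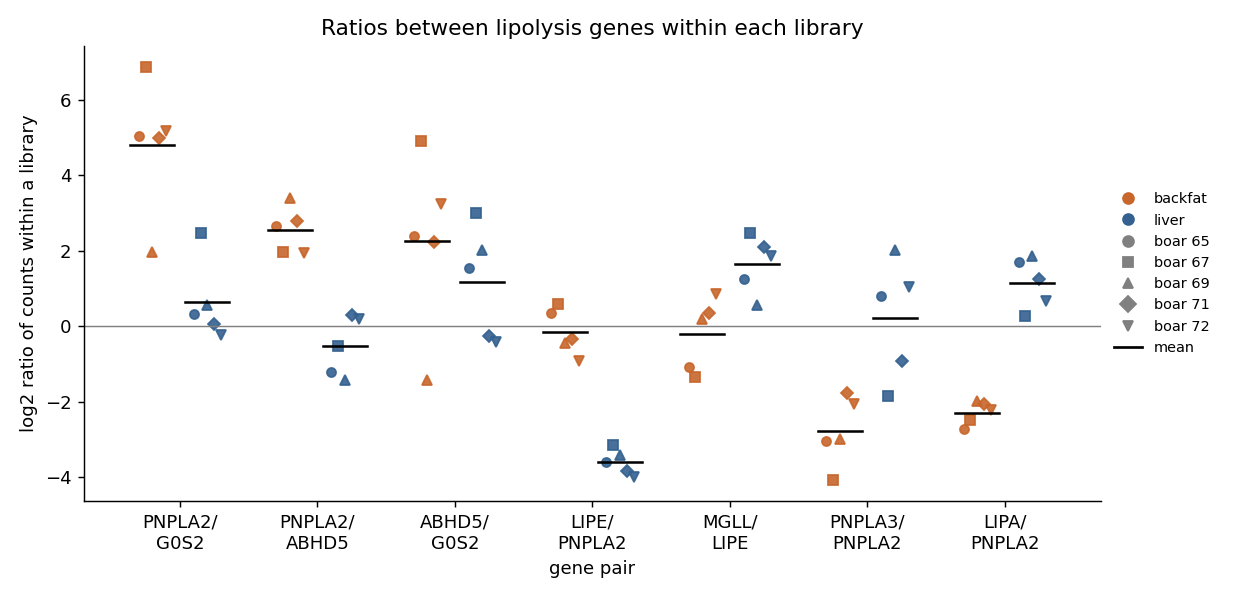
Log2 ratio of the counts of gene pairs within each library, with backfat in orange, liver in blue, a marker shape for each boar and a black line at the mean of 5 libraries. The tissues are separate for PNPLA2/ABHD5, LIPE/PNPLA2 and LIPA/PNPLA2, and they overlap for the other 4 pairs.

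Levels of different genes were compared as CPM per kb of exon, with the exon length of each gene as deposited. In backfat PNPLA2 was first at 243 ± 26.2 CPM per kb (SD, n = 5) and LIPE next at 128 ± 65.8 (SD, n = 5), with ranges that overlapped. G0S2 followed at 95.3 ± 142 CPM per kb (SD, n = 5), its range spanning those of most other genes, and MGLL at 93.4 ± 15.1 (SD, n = 5). MGLL was separate from PNPLA3, the next, at 36.0 ± 18.0 CPM per kb (SD, n = 5), and ABHD5 (23.3) and LIPA (15.2) came last with overlapping ranges. In liver LIPE and MGLL moved to the end of the order. G0S2 was first at 84.8 ± 58.6 CPM per kb (SD, n = 5), then PNPLA3 (27.0), PNPLA2 (19.2), ABHD5 (14.5) and LIPA (13.1), each overlapping the next. MGLL at 2.93 ± 2.06 CPM per kb (SD, n = 5) and LIPE at 0.826 ± 0.227 (SD, n = 5) were last, MGLL below the range of LIPA. The middle of both orders depends on the gene model, since the deposited exon length was 418 bases for G0S2 and 4444 for ABHD5 while their longest RefSeq transcripts have 855 and 1326 bases. With the RefSeq lengths PNPLA2 and LIPE kept the first and second places in backfat, MGLL and LIPE the last 2 in liver, and ABHD5 came first in liver at 48.7 CPM per kb.

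Within backfat LIPE and PNPLA2 were high and low in the same boars, and MGLL was not. The 7 adipocyte markers summed to 5298 CPM in boar 65, 5717 in boar 67, 4904 in boar 69, 3853 in boar 71 and 3320 in boar 72, and 4 stromal genes, all called higher in backfat, to 24470, 17830, 14930, 24980 and 32670 CPM. Skeletal muscle, which also uses LIPE, left traces: its 3 markers summed to 392, 104, 147, 23.8 and 7.63 CPM in the same order. ADIPOQ alone gave 2247 to 4842 CPM of the adipocyte sums, and COL1A1 alone 13040 to 30290 CPM of the stromal sums. These sums therefore mostly follow 1 gene each. LIPE was highest in boars 67 and 65, which also had the highest adipocyte sums, and lowest in boar 72, which had the lowest. PNPLA2 had the same order of boars as the marker sum over a much smaller range. MGLL ran otherwise, with its lowest levels in boars 65 and 67. The part of adipocyte, stromal and muscle RNA in these differences was not tested, and 5 libraries are too few for a correlation. Macrophages also express LIPA, and 2 of 6 tested macrophage markers were called higher in liver. Their sum, 821 to 1413 CPM in liver against 154 to 277 CPM in backfat, included 397 to 1063 CPM of CD14 in liver, while CD68 and CSF1R overlapped between tissues.

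**Figure D4:**
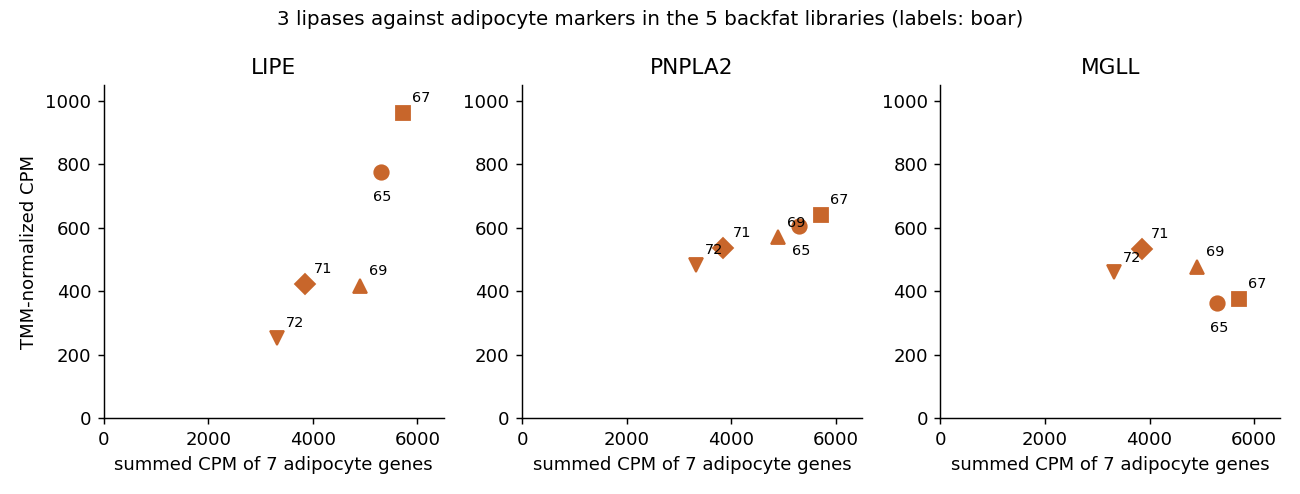
TMM-normalized CPM of LIPE, PNPLA2 and MGLL in the 5 backfat libraries (vertical axes) against the summed CPM of 7 adipocyte genes (horizontal axes), each point labelled with its boar. LIPE spans 254 to 962 CPM over marker sums of 3320 to 5717 CPM, while PNPLA2 spans 483 to 641 and MGLL 363 to 534 CPM. ADIPOQ alone gave 2247 to 4842 CPM of the marker sums.

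The genes whose pattern over the 10 libraries was most like each member were found by the root mean square (RMS) difference of log2 levels, each gene taken relative to its own mean, among 12740 genes with a symbol. Nearest to LIPE were COL5A3, a collagen chain (RMS 0.46), and NRIP3 (0.47). Near to PNPLA2 was PTPRS, a receptor tyrosine phosphatase (0.22), and nearest to MGLL were MEOX1, a homeobox gene (0.24), and OGN, a small matrix proteoglycan (0.33). ABHD5 was nearest to SMNDC1 (0.21) and SBNO2 (0.23), and LIPA to AGA, a lysosomal enzyme (0.16), and ITM2B (0.16). PNPLA3 and G0S2 had no close neighbour, with SNORA61 at 0.52 and ZNF471 at 0.53 for PNPLA3 and CCDC71 at 0.63 and TSR3 at 0.80 for G0S2. Among the 7 genes themselves the nearest pair was ABHD5 and LIPA (0.68), followed by PNPLA3 and LIPA (0.94) and by PNPLA2 and MGLL (0.97).

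The pathway around the 7 genes was described by 5 lists written from general knowledge of lipolysis, with earlier results of these data known. Of 25 signalling genes that turn lipolysis on or off, 22 were tested, 6 were called towards backfat and 0 towards liver by edgeR's test and by DESeq2, with a median log2 fold change of 0.87. The share of all tested genes called was 22.3%, with 11.1% towards backfat and 11.2% towards liver, and it is the background for each list. By the FDR alone 13 of the 22 were higher in backfat and 2 in liver, where 55% of all tested genes passed. The largest changes were in receptors. ADORA1, an adenosine receptor that restrains lipolysis, averaged 66.97 ± 14.5 CPM across backfat libraries against 0.112 ± 0.137 CPM across liver libraries (SD, n = 5 each), a log2 fold change of 9.22. PTGER3, a prostaglandin E receptor with a like restraining role, averaged 34.4 ± 16.2 CPM across backfat libraries against 0.427 ± 0.186 CPM across liver libraries (SD, n = 5 each). NPR1, the natriuretic peptide receptor that promotes lipolysis, averaged 300.2 ± 52.1 CPM across backfat libraries against 14.9 ± 6.02 CPM across liver libraries (SD, n = 5 each). PRKAR1A, a regulatory subunit of protein kinase A, and AKT2, a kinase of insulin signalling, were the most abundant genes not called, with log2 fold changes of 0.44 and 1.48.

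Genes of the lipid droplet and its partners divided between the tissues. Of 15 listed, 12 were tested, 5 were called towards backfat (11.1% of all tested genes) and 3 towards liver (11.2%), and their median log2 fold change was 0.20. FABP4, which carries fatty acids and binds LIPE, was at 10.52, PLIN1, the droplet coat that holds ABHD5 until lipolysis is triggered, at 8.58, and CIDEC, which joins droplets, at 7.13. PLIN1 itself averaged 1222 ± 261 CPM across backfat libraries against 3.20 ± 1.36 CPM across liver libraries (SD, n = 5 each). On the liver side stood CIDEB at -6.95, HSD17B11 at -5.67 and PLIN5, the coat protein of oxidative tissues, at -4.75, with 232 ± 111 CPM across liver libraries against 8.61 ± 2.67 CPM across backfat libraries (SD, n = 5 each). PLIN2 (0.76, FDR = 0.106) and AUP1 (-1.53, FDR = 1.68e-05, both by edgeR's quasi-likelihood test) were not called, AUP1 through the fold threshold alone. By the FDR alone 5 of the 12 were higher in backfat and 5 in liver, where 55% of all tested genes passed.

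Other hydrolases of the same families were compared next. Of 22 listed, 13 were tested, 0 were called higher in backfat (11.1% of all tested genes) and 2 higher in liver (11.2%), with a median log2 fold change of -0.37, and DESeq2 gave the same counts. With library size alone as the scaling 2 were called higher in backfat, and 1 was without the backfat library of boar 72 or the liver library of boar 67 or 69. By the FDR alone, as by an unadjusted p of 0.05, 3 were higher in backfat and 6 in liver. AADAC, an arylacetamide deacetylase of the endoplasmic reticulum, averaged 0.633 ± 0.374 CPM across backfat libraries against 295 ± 76.0 CPM across liver libraries (SD, n = 5 each), a log2 fold change of -8.86. CES3, a carboxylesterase related to CES1, averaged 3.35 ± 0.965 CPM across backfat libraries against 596 ± 176 CPM across liver libraries (SD, n = 5 each), a log2 fold change of -7.47. PNPLA7 (-1.47) and FAAH (-1.65) were the most abundant of those not called. Of 14 lysosomal genes 13 were tested and 0 were called in either direction by edgeR's test or by DESeq2, against 22.3% of all tested genes, with a median of -0.58. By the FDR alone, which 55% of all tested genes passed, 4 of them were higher in backfat and 6 in liver, and by an unadjusted p of 0.05 4 and 7. PSAP, the precursor of the saposins, was at 1.26 and CTSD, a lysosomal protease, at -0.92, and with library size alone as the scaling 1 lysosomal gene was called higher in backfat. Of 10 transcription factors, all tested, 1 was called towards backfat (11.1% of all tested genes) and 2 towards liver (11.2%). The count towards liver was 1 with the boar as a block, with library size alone, and without the backfat library of boar 69 or 72 or the liver library of boar 65 or 69. PPARG, the adipocyte regulator, averaged 161 ± 34.4 CPM across backfat libraries against 0.742 ± 0.576 CPM across liver libraries (SD, n = 5 each), a log2 fold change of 7.78, against -9.52 for HNF4A, the hepatocyte regulator, and -2.08, close to the threshold of 2, for PPARA. CEBPA (1.36, FDR = 0.0195) and MLXIPL (-0.80, FDR = 0.0583, both by edgeR's quasi-likelihood test) were not called, CEBPA through the fold threshold alone. By the FDR alone 5 of the 10 factors were higher in backfat and 3 in liver.

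**Figure D5:**
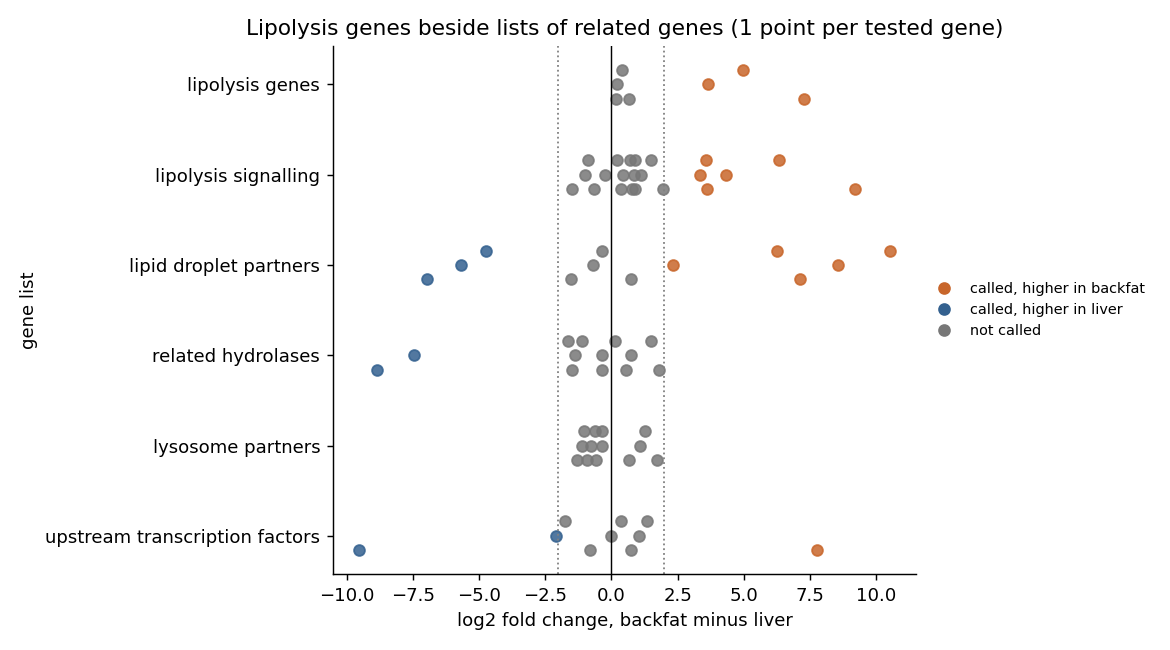
Log2 fold change (backfat minus liver) of every tested gene of the 7 lipolysis genes and of the 5 lists, 1 point per gene, with called genes in orange (higher in backfat) or blue (higher in liver), other genes in grey and dotted lines at the fold threshold of 2. The 3 called lipolysis genes lie on the backfat side, the droplet partners lie on both sides, and the 2 called related hydrolases lie on the liver side.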

How the data were processed

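RNA of backfat and liver of 5 boars was sequenced, which gave 10 libraries. The authors used FastQC and Trimmomatic on the reads, HISAT2 for alignment (pig build Sscrofa11.1) and featureCounts 2.0.1 to count pairs over exons of Ensembl release 99. The deposited values are raw counts per gene, without normalization, counted without strand and without multi-mapping reads. The table also gives exon lengths. The authors' bisulfite tables hold calls by read position and were not used.

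Columns were assigned to a tissue by name. Genes were matched to symbols by Ensembl identifier (15029 of 31907 have one). The 7 genes analysed and all lists were chosen with earlier results of these data known. Counts were filtered by filterByExpr, scaled by TMM and fitted with tissue as the only term (glmQLFit and glmQLFTest, edgeR 4.0.16, R 4.3.3), with Benjamini-Hochberg adjustment over 16275 genes. Calls used the study's thresholds. A standard error is the size of the log2 fold change over the root of its F. Fits were tested on simulated counts. DESeq2 1.42.0, limma 3.58.1 (voom) and glmTreat were alternatives, with other scalings and filters, the boar as a block and libraries left out. Ratios, patterns and figures were computed in Python 3.11.15 (matplotlib 3.10.9), with 0.1 CPM added before log2 levels of single libraries were compared.

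The numbers in the column names were read as boars and used to pair the tissues, since the study took both tissues from 5 boars. The column names do not themselves say that the number is an animal. Deviations from the tissue mean correlated at 0.049 to 0.238 across genes between the libraries of one boar. The backfat library of boar 69, at 0.049, correlated best with the liver library of boar 72. Each of the other backfat libraries correlated best with the liver library of its own number. Libraries of a tissue differed well beyond counting noise (chi-square per degree of freedom of at least 61.5), so each counted as 1 replicate. Positions, motifs and sequences come from RefSeq's annotation of Sscrofa11.1, while counts used Ensembl's gene models. Named genes were the 7 members, for each direction up to 3 called genes of largest change and the 2 most abundant uncalled genes of each list, and the 2 genes nearest in pattern to each member. One gene that this rule names is not reported here.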

Additional observations from a re-analysis of the deposited data

Results flagged for a closer look

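Levels (as CPM, not on the log2 scale) and log2 ratios were searched for libraries that stood apart within a tissue, in 28 sets of 5 libraries. The measure was the gap from the lowest or highest library to its neighbour as a share of the whole range, and shares over 0.71, Dixon's limit for 5 values, were marked. About 1 in 20 such sets is marked by chance. One library was marked, no more than chance gives in 28 sets, and no log2 ratio was. This was G0S2 in the backfat library of boar 69, at 145.4 CPM. The next highest backfat library had 18.3 CPM, and the gap was 0.908 of the range. The backfat library of boar 69 also had 93.6 CPM of summed hepatocyte genes and the lowest ABHD5 of the 5 backfat libraries, 54.0 CPM. These were not tested as parts of its G0S2 level.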

How the results depend on the processing

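LIPE, PNPLA2 and MGLL were called higher in backfat in the main analysis and in all 21 alternatives of the fit, with log2 fold changes of 7.00 to 8.06, 3.55 to 4.43 and 4.76 to 5.78. The replicate block (boar) gave 7.15, 3.70 and 5.29 and changed no call of the 7 genes. G0S2 was reversed in limma-voom (-0.47), with the replicate block (-0.63), without liver 67 and backfat 69 together (-1.65), and ranged from -1.39 to 0.46 when single libraries were left out. LIPA was reversed without both libraries (-0.024). Genes called in all numbered 3633, against 1852 with at least 10 counts in every library, which tests fewer genes, and 2413 in glmTreat, which tests the fold threshold itself. With single libraries left out they numbered 3716 to 3964. Library size alone shifted the median log2 fold change by 0.72 towards backfat and gave 2874 genes higher in backfat and 1340 in liver, against 1814 and 1819. With it 2 related hydrolases, 1 lysosomal gene and 2 transcription factors were called higher in backfat and 1 factor higher in liver. With single libraries left out, related hydrolases called higher in backfat ranged from 0 to 1 and factors called higher in liver from 1 to 2, and with the replicate block 1 factor was called higher in liver. Paired by boar in an exact sign-flip test, ratio shifts that passed before (PNPLA2/G0S2 4.18, PNPLA2/ABHD5 3.09, LIPE/PNPLA2 3.45, MGLL/LIPE -1.86, PNPLA3/PNPLA2 -3.002, LIPA/PNPLA2 -3.44) had an adjusted p of 0.0729, since 5 pairs allow no smaller p than 0.0625. Without liver 67 and backfat 69 together ABHD5/G0S2 shifted by 2.47 and passed, and MGLL/LIPE by -1.76 and did not. By the longest transcript, places per kb in backfat were 3 for MGLL, 4 for ABHD5, 5 for G0S2, 6 for LIPA and 7 for PNPLA3, and in liver 1 for ABHD5, 2 for G0S2, 3 for LIPA, 4 for PNPLA3 and 5 for PNPLA2. Where no reason is given, the cause was not tested. The lowest count of any of the 7 genes in any library was 107. For these genes taken singly, counting error was not compared with the spread between libraries.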
